A study of Homo sapiens with 6 samples.

Results

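Receptors through which cells sense lipids and foreign chemicals were examined in HK2, a human proximal tubule epithelial line immortalised in culture. The set held 10 genes chosen by name. They were the peroxisome proliferator-activated receptors PPARA, PPARD and PPARG, the liver X receptors NR1H2 and NR1H3, the retinoid X receptors RXRA and RXRB, the aryl hydrocarbon receptor AHR, and the PGC-1 coactivators PPARGC1A and PPARGC1B. Each had 1 row among the 25808 genes of the deposited table. Of the 6 libraries, 3 came from confluent HK2 cells exposed to TBOEP at 20 µM for 48 hours. TBOEP is tris(2-butoxyethyl) phosphate, an organophosphate ester that serves as a plasticiser and flame retardant. The other 3 came from HK2 cells that received DMSO, the solvent, with no dose or time in the labels. No genetic change is named in the labels for either group, and both groups come from the same cell line.

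PPARs, liver X receptors and retinoid X receptors belong to the nuclear receptor family, whose members bind a small lipophilic ligand and regulate transcription from DNA elements near their target genes. PPARs respond to fatty acids and their derivatives, liver X receptors respond to oxidised sterols, and each binds DNA as a heterodimer with a retinoid X receptor. AHR is a ligand-activated factor of another family, held in the cytosol by chaperones until a planar aromatic ligand sends it to the nucleus, where it pairs with ARNT and activates CYP1 genes. PGC-1 coactivators do not bind DNA themselves and are recruited by nuclear receptors to genes of mitochondrial biogenesis and fatty acid oxidation. In the proximal tubule, which lives mainly on fatty acid oxidation, PPARA and PPARGC1A are known for maintaining that metabolism.

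The values were FPKM, reads scaled to gene length and to the library total. Library totals of 32547856 to 38247579 reads were recovered from the steps between values, so 1 read on a gene of 1 kb was worth 0.0261 to 0.0307 FPKM. The labels do not say whether the 3 libraries of a group came from separate cultures, so p-values reflect the spread among libraries that may be technical repeats. Of 9 measured markers of proximal tubule and kidney epithelium, 3 (PAX8, CDH6 and MIOX) reached 1 FPKM in all 6 libraries, and the other 6 did not. The summed level of that list was 54.6 to 58.2 FPKM in TBOEP and 61.5 to 63.4 FPKM in DMSO. Each of 4 lists for other cell types had 1 gene at 1 FPKM or more in all libraries: SYNPO for podocytes, EGFL7 for endothelium, COL1A1 for fibroblasts and CSF1R for leukocytes. Their summed levels in TBOEP and in DMSO were 9.20 to 9.33 and 8.33 to 9.64 FPKM for podocytes, at most 27.2 and at least 33.8 FPKM for endothelium, 22.7 to 22.9 and 26.8 to 29.6 FPKM for fibroblasts, and 1.24 to 1.35 and 1.20 to 1.71 FPKM for leukocytes. No measured hepatocyte or adipocyte marker reached 1 FPKM. The part of any of these markers in the receptor values was not tested.

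HK2 cells held 4 of the 10 genes at 1 FPKM or more in every library: NR1H2, PPARD, RXRA and NR1H3. The other 6, PPARA, PPARG, PPARGC1A, AHR, PPARGC1B and RXRB, were below 1 FPKM in all 6 libraries. In both groups the order of levels began with NR1H2, then PPARD, RXRA and NR1H3, and neighbours in that order did not overlap in range. Among the low genes, PPARG and PPARA overlapped in range in TBOEP, and so did AHR and PPARGC1A. In DMSO each of PPARA, PPARGC1A, PPARG and AHR overlapped with its neighbour in the order of mean level. PPARGC1B and then RXRB were lowest in both groups, each with a range separate from that of the gene above it.

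**Figure D1:**
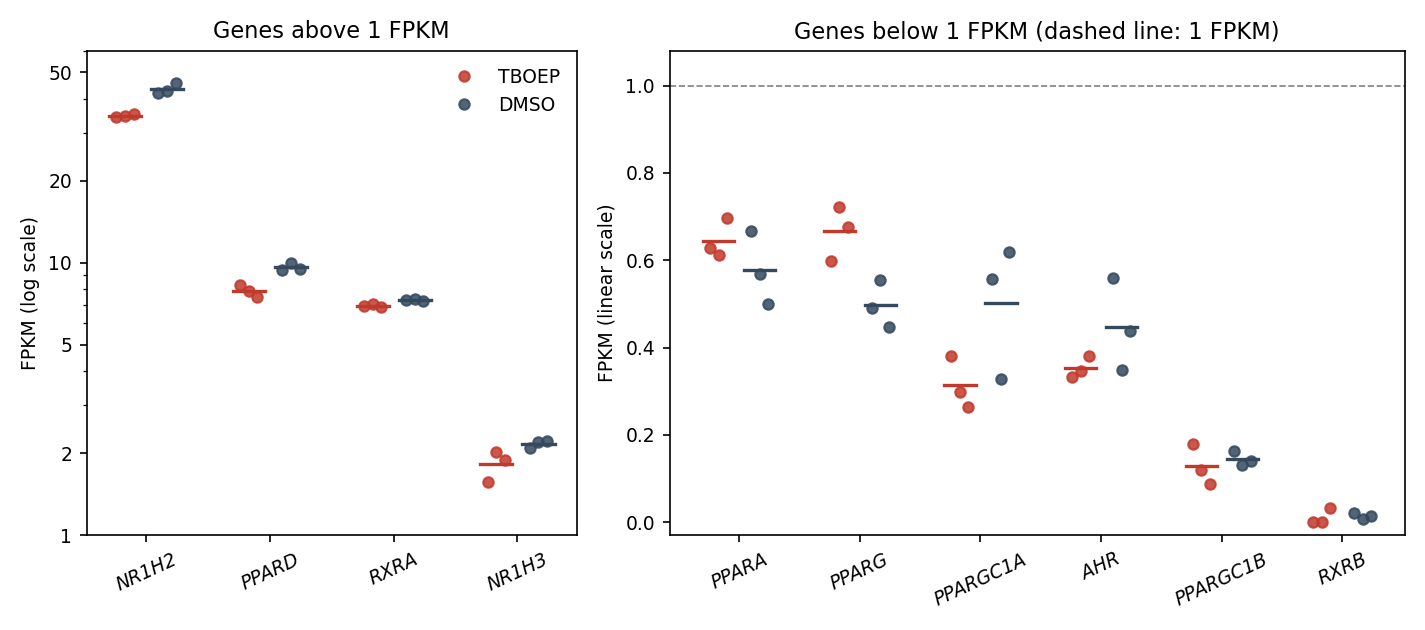
Level of the 10 receptor and coactivator genes in FPKM in each library, for 3 TBOEP (red) and 3 DMSO (dark) libraries; points are libraries and bars are group means, with none drawn for RXRB. NR1H2 stands highest, at 34.3 to 35.1 FPKM in TBOEP and 41.9 to 45.6 FPKM in DMSO, and 6 genes lie under the dashed line at 1 FPKM.

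Testing by limma on log2(FPKM + 1) was limited to the 9631 genes that reached 1 FPKM in 3 or more libraries, with Benjamini-Hochberg adjustment over them and a call at an adjusted p under 0.05. Only the 4 higher genes entered it. NR1H2 and PPARD fell, RXRA and NR1H3 did not pass, and 0 rose. Of all tested genes 53.8% changed, 26.9% lower and 26.9% higher in TBOEP. The median log2 fold change was -0.21 over the 4 genes and -0.02 over all tested genes. All 4 had lower values in every TBOEP library than in any DMSO library, a pattern that 31.8% of tested genes had. In a bulk measurement, fewer cells that express a gene and less of its RNA per cell cannot be told apart.

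NR1H2 (ENSG00000131408, chromosome 19), which encodes LXRβ, the liver X receptor found in most tissues, had 34.3, 34.6 and 35.1 FPKM in the TBOEP libraries and 41.9, 42.8 and 45.6 FPKM in the DMSO libraries. The highest TBOEP library lay well under the lowest DMSO library. Means were 34.6 ± 0.419 FPKM in TBOEP and 43.4 ± 1.97 FPKM in DMSO (SD, n = 3 each), so the TBOEP mean was 79.7% of the DMSO mean. NR1H2 fell by 0.32 ± 0.04 on the log2(FPKM + 1) scale (SE; 95% interval -0.40 to -0.23; limma adjusted p = 1.42e-04). Between 6098 and 8798 reads stood behind each value, and the call was made under each of the alternatives run. Its size was not stable: with a correction for GC content and length it was -0.14 in limma and -0.10 in limma-voom. The deposited values imply a length of 5341 bases for this gene against 3753 bases of merged exons in GENCODE 29. Rescaled to the shorter length with the reads unchanged, its means would be 49.3 FPKM in TBOEP and 61.8 FPKM in DMSO. Reads outside the shorter exons could not be taken out, so these rescaled means may be too high.

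NR1H3 (ENSG00000025434, chromosome 11), LXRα, the liver X receptor of liver, fat and macrophages and itself a target of liver X receptors, was far lower. It had 1.56, 2.02 and 1.89 FPKM in TBOEP and 2.09, 2.20 and 2.22 FPKM in DMSO. The groups did not overlap, but TBOEP replicate 2 and DMSO replicate 1 were close. Means were 1.82 ± 0.234 FPKM in TBOEP and 2.17 ± 0.0715 FPKM in DMSO (SD, n = 3 each). The log2 fold change of NR1H3 was -0.17 ± 0.07 (SE; 95% interval -0.34 to -0.00) and did not pass (limma adjusted p = 0.0793). It passed after median centring (-0.23, limma adjusted p = 0.0249), after a correction for GC content and length (-0.25, limma adjusted p = 0.0205) and without TBOEP replicate 2 (-0.22, limma adjusted p = 0.0498). Without TBOEP replicate 1, the lowest library, it was -0.10 (limma adjusted p = 0.251). NR1H2 made up 95.6, 94.5 and 94.9% of the summed FPKM of both liver X receptors in TBOEP and 95.3, 95.1 and 95.4% in DMSO, a difference in means of -0.237 percentage points (exact permutation test, two-sided, p = 0.6; the smallest that 3 against 3 libraries allow is 0.1).

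PPARD (ENSG00000112033, chromosome 6), the PPAR found in most cell types, had 8.28, 7.86 and 7.47 FPKM in TBOEP and 9.37, 9.97 and 9.51 FPKM in DMSO. Every TBOEP library was below every DMSO library. Means were 7.87 ± 0.405 FPKM in TBOEP and 9.62 ± 0.311 FPKM in DMSO (SD, n = 3 each), from 1084 to 1598 reads per library. PPARD fell by 0.26 ± 0.05 (SE; 95% interval -0.37 to -0.15; limma adjusted p = 0.00223). The TBOEP mean of PPARD was 81.9% of the DMSO mean. This call too was made under each alternative run.

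The promoters of NR1H2 and PPARD, the receptors that fell, are shown because the genes moved the same way. The sequences are RefSeq's for GRCh38.p14, 250 bases before to 50 bases after the transcription start. All 10 genes matched that table, with 22 starts in all. Capitals mark GCGTG or its reverse complement CACGC, the core of the AHR and ARNT element, searched on both strands. It was found in 36.5% of 35116 promoters of the same length and in 10 of the 22 (45.5%).
NR1H2 at chr19:50376207-50376506 (+): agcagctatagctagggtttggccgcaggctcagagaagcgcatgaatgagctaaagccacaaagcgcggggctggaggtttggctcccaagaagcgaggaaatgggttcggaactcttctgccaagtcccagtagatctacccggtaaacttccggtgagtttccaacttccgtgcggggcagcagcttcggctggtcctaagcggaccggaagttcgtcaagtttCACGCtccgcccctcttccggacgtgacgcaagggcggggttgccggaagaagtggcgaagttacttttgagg
PPARD at chr6:35342308-35342607 (+): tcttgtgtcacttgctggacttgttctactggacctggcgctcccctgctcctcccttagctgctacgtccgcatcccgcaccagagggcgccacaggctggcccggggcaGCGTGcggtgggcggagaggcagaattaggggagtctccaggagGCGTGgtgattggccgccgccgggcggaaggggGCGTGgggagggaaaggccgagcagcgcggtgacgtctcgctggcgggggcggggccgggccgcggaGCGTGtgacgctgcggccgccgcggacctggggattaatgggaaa
The core occurred 4 times in the PPARD promoter and 1 time in the NR1H2 promoter. The hexamer AGGTCA (reverse complement TGACCT), on which nuclear receptors dock, was in neither of them. It was in 13.8% of all promoters and in 4 of the 22 (18.2%), those of PPARG and NR1H3. Windows of some starts overlap, such as those of PPARG at chr3:12288810-12289109 and chr3:12288820-12289119, which each hold the hexamer. The 22 are thus not all separate sequences, and 1 site can count more than once. The cores and hexamers found are matches of letters in a window and do not show binding.

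PPARA (ENSG00000186951, chromosome 22), the receptor that drives fatty acid oxidation in liver and kidney, had 0.627, 0.612 and 0.697 FPKM in TBOEP and 0.667, 0.569 and 0.501 FPKM in DMSO. The groups overlapped, with DMSO replicate 1 inside the TBOEP range. PPARG (ENSG00000132170, chromosome 3), the receptor that drives fat cell formation, had 0.599, 0.722 and 0.677 FPKM in TBOEP and 0.491, 0.555 and 0.446 FPKM in DMSO. Every TBOEP library was above every DMSO library, and the TBOEP mean of PPARG was 134% of the DMSO mean. Such a separation, with TBOEP higher, was seen in 23.1% of 15227 genes with at least 10 reads in at least 3 libraries.

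Because 6 of the genes were under the limit for testing, the recovered reads were also tested by limma-voom for 15227 genes with at least 10 reads in at least 3 libraries, a setting chosen after the data were seen. In that test 38.5% of genes changed, 19.6% lower and 19.0% higher in TBOEP. Of the 9 genes that entered, 3 fell (NR1H2, PPARD and PPARGC1A) and 1 rose (PPARG). The planned limma fit with no filter called neither PPARG (0.15, limma adjusted p = 0.169) nor PPARGC1A (-0.19, limma adjusted p = 0.270). That fit called 4105 of 25808 genes. PPARG, with 193 to 302 reads per library, rose by 0.42 ± 0.14 (SE; limma-voom log2 fold change, adjusted p = 0.0141). With each library left out in turn its estimate was 0.35 to 0.50 and it was called in 4 of 6 fits; it was lost without TBOEP replicate 2 (limma-voom adjusted p = 0.0746) and without DMSO replicate 3 (0.0724). After a correction for GC content and length it was 0.15 (limma-voom adjusted p = 0.443), in a fit that called 33.6% of genes, 17.5% lower and 16.1% higher; its transcript has 44.0% GC. PPARA did not pass, at 0.16 ± 0.13 (SE; 95% interval -0.11 to 0.42; limma-voom adjusted p = 0.375; 0.06 to 0.27 without each library in turn).

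The statement that PPARG lies below 1 FPKM may depend on gene length. The deposited values imply 11981 bases for it, against 4535 bases of merged exons in GENCODE 29. Rescaled to the shorter length with its reads unchanged, PPARG would have means of 1.76 FPKM in TBOEP and 1.31 FPKM in DMSO. Its lowest library would be at 1.18 FPKM. Reads outside the shorter exons could not be taken out, so these rescaled values may be too high. For PPARD both lengths were 4457 bases. As a share of the summed FPKM of the 3 PPARs, PPARD made up 85.7 ± 1.33% in TBOEP and 89.9 ± 0.969% in DMSO (SD, n = 3 each), PPARG 7.27% and 4.64%, and PPARA 7.04% and 5.42%. The difference for PPARD was -4.25 percentage points (exact permutation test, two-sided, p = 0.1, the smallest that 3 against 3 libraries allow). Rescaled to the GENCODE 29 lengths in the same way, PPARD would make up 76.6 ± 2.09% in TBOEP and 83.6 ± 1.24% in DMSO (SD, n = 3 each). PPARG would make up 17.1% and 11.4%, which may be too high, and PPARA 6.29% and 5.03%.

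RXRA (ENSG00000186350, chromosome 9), the shared partner of PPARs and liver X receptors, had 6.95, 7.05 and 6.88 FPKM in TBOEP and 7.33, 7.36 and 7.26 FPKM in DMSO. The groups did not overlap, though the gap was small beside that of NR1H2. Means were 6.96 ± 0.0853 FPKM in TBOEP and 7.32 ± 0.0506 FPKM in DMSO (SD, n = 3 each). The log2 fold change of RXRA was -0.06 ± 0.04 (SE; 95% interval -0.16 to 0.03) and did not pass (limma adjusted p = 0.225). It was called lower after median centring (-0.12, limma adjusted p = 0.0300), where 57.0% of tested genes changed. It was also called lower after quantile normalization (-0.12, limma adjusted p = 0.0310), where 54.9% changed. Its sign turned in the fit corrected for GC content and length (0.06, limma adjusted p = 0.227), so no direction is given for it.

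RXRB (ENSG00000204231, chromosome 6), a broadly expressed retinoid X receptor, was listed at 0 FPKM in TBOEP replicates 1 and 2 and at 0.0315 FPKM in TBOEP replicate 3. It had 0.0201, 0.00765 and 0.0142 FPKM in the DMSO libraries. These values correspond to 0, 0 and 4 reads in TBOEP and 3, 1 and 2 reads in DMSO, against a counting floor of 3 reads (0.0201 to 0.0237 FPKM). No fold is given, since nearly all libraries are at or under the floor. RXRG, the third retinoid X receptor, was not analysed here.

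RXRB lies in the gene-dense region of chromosome 6 beside the major histocompatibility complex, and its neighbours there were also near 0. In the RefSeq order of protein-coding genes, 63 genes were taken, 50 before RXRB and 13 after it, limits chosen after their values were seen. Of these, 28 had a row and 96.4% of the 28 were under 1 FPKM in mean, with a median of 0.0120 FPKM. Of the next 51 genes, 42 had a row, 35.7% of them were under 1 FPKM and the median was 2.50 FPKM. Over all protein-coding genes with a row the share under 1 FPKM was 43.6% and the median 1.53 FPKM.

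Genes that nearly every cell uses were among these low neighbours. RPS18, a protein of the small ribosomal subunit, had 273, 11 and 6 reads in TBOEP and 9, 5 and 66 reads in DMSO. SLC39A7, a zinc transporter of the secretory pathway, had 2 reads in each TBOEP library and 0 in each DMSO library. Further away, BAG6, a chaperone of newly made membrane proteins, had 0, 0 and 3 reads in TBOEP and 1, 2 and 3 reads in DMSO. CUTA, 16 genes after RXRB, differed widely among replicates, with 870, 151 and 77 reads in TBOEP and 3581, 3772 and 120 reads in DMSO. PPARD lies on the same chromosome, 43 genes after RXRB, and its 1084 to 1598 reads per library show no such scatter. The values of RXRB are therefore given as listed and not as a level in HK2 cells; the part of this stretch of the chromosome in them was not tested.

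**Figure D2:**
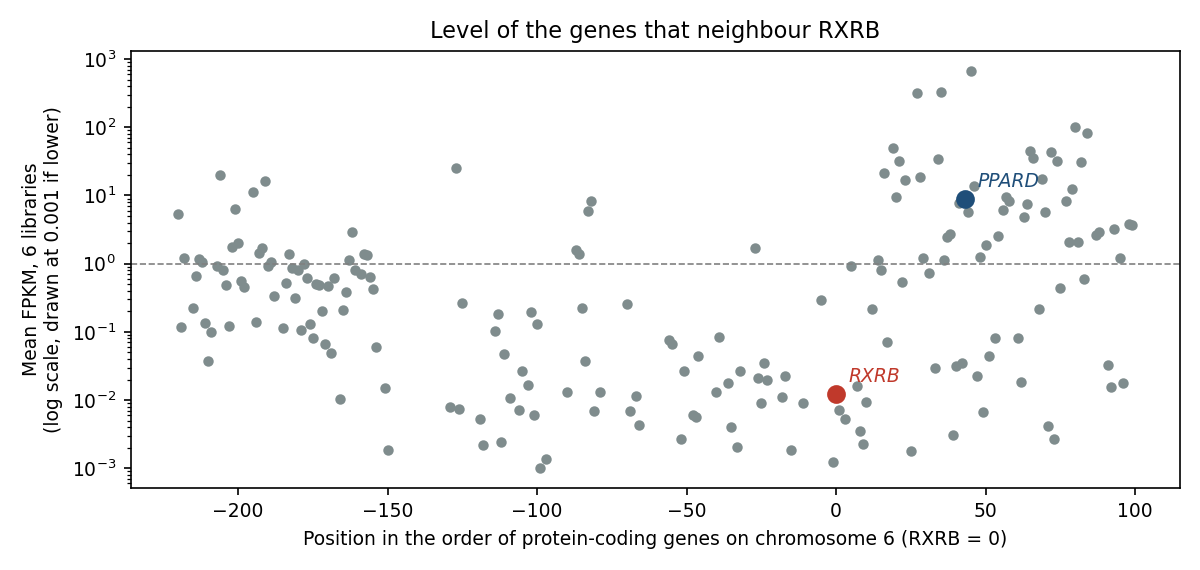
Mean FPKM over 6 libraries (log axis) of protein-coding genes with a row, by their position in the RefSeq gene order of chromosome 6, with RXRB at 0; the dashed line is 1 FPKM. RXRB sits among genes whose median is 0.0120 FPKM, and PPARD, 43 genes later, sits in a stretch of genes whose median is 2.50 FPKM.

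PPARGC1A (ENSG00000109819, chromosome 4), or PGC-1α, had 0.380, 0.298 and 0.263 FPKM in TBOEP and 0.558, 0.329 and 0.619 FPKM in DMSO. DMSO replicate 2 lay inside the TBOEP range, so the groups overlapped. By limma-voom PPARGC1A fell by 0.65 ± 0.23 (SE; 95% interval -1.13 to -0.17; adjusted p = 0.0312), from 93 to 243 reads per library. With each library left out in turn the estimate was -0.91 to -0.48 and it was called in 2 of 6 fits, without TBOEP replicate 1 (limma-voom adjusted p = 0.0294) and without DMSO replicate 2 (1.61e-04). It was not called without TBOEP replicate 2 (limma-voom adjusted p = 0.112), TBOEP replicate 3 (0.132), DMSO replicate 1 (0.107) or DMSO replicate 3 (0.0882). Nor was it called in limma with no filter (-0.19, limma adjusted p = 0.270). Its coefficient of variation among DMSO libraries was 30.5%, where counting error alone gives 7.10%.

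PPARGC1B (ENSG00000155846, chromosome 5), or PGC-1β, had 0.180, 0.120 and 0.0882 FPKM in TBOEP and 0.164, 0.132 and 0.140 FPKM in DMSO, from 37 to 83 reads. The DMSO libraries all lay inside the TBOEP range. The limma-voom log2 fold change of PPARGC1B was -0.21 ± 0.28 (SE; 95% interval -0.78 to 0.36; adjusted p = 0.598). Without each library in turn it was -0.48 to 0.02, above 0 only without TBOEP replicate 3. Among TBOEP libraries its coefficient of variation was 35.9%, where counting error alone gives 13.1%.

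AHR (ENSG00000106546, chromosome 7) had 0.333, 0.345 and 0.382 FPKM in TBOEP and 0.559, 0.348 and 0.437 FPKM in DMSO. The groups overlapped, with DMSO replicate 2 inside the TBOEP range. From 94 to 172 reads per library, the limma-voom log2 fold change of AHR was -0.33 ± 0.21 (SE; 95% interval -0.76 to 0.09; adjusted p = 0.217). AHR was called in 0 of 6 fits that left out a library; its estimate was -0.49 without DMSO replicate 2 and -0.15 without DMSO replicate 1.

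**Figure D3:**
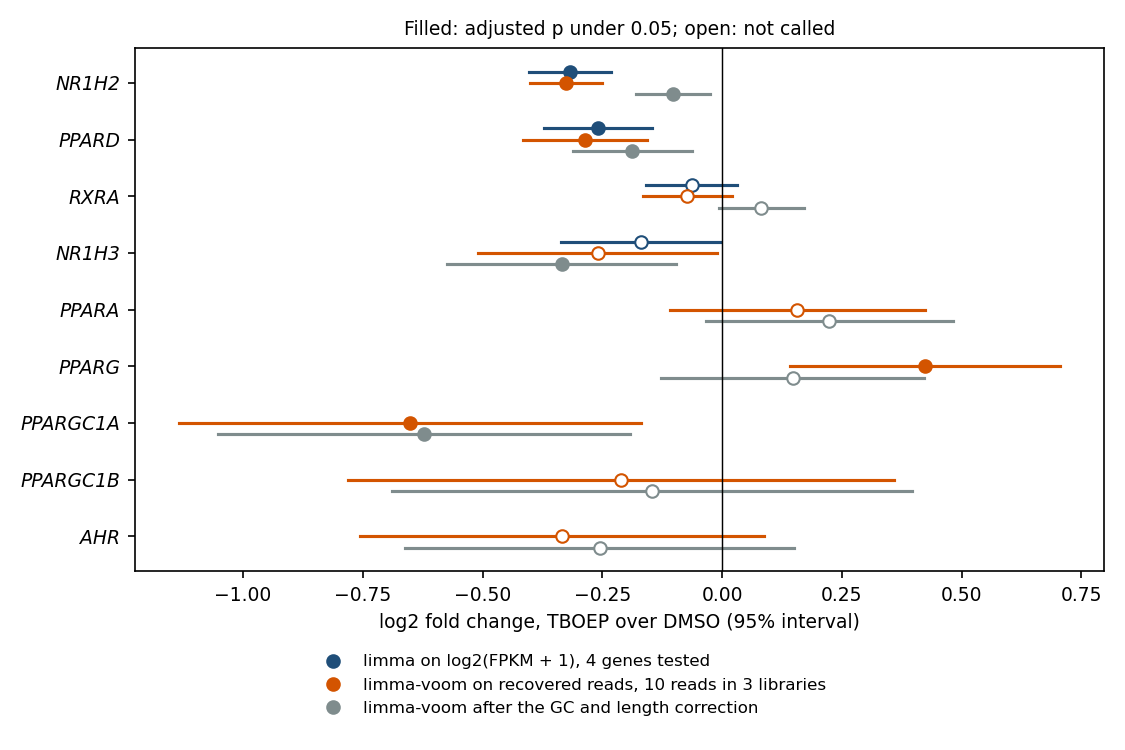
log2 fold change of TBOEP over DMSO for the 9 genes that entered a test, with 95% intervals, by limma on log2(FPKM + 1) (blue, 4 genes), limma-voom on recovered reads (orange) and limma-voom after a GC and length correction (grey); filled points have an adjusted p under 0.05. NR1H2 and PPARD are filled and left of 0 in each test, and PPARG is filled only before the correction.

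Fold changes across all genes moved with GC content, the share of G and C in the transcript, and the receptors were read against that. Among 1257 tested genes of 58 to 62% GC, which include NR1H2 (60.9%), RXRA (60.6%) and PPARD (59.0%), the median log2 fold change was -0.14. Of these genes 47.1% were called lower and 5.73% higher. Among genes of 46 to 50% GC the median was 0.16 and 47.4% were called higher. NR1H2 and PPARD lay below the median of their GC class and RXRA above it. NR1H3 has 55.4% GC, and genes of 54 to 58% GC had a median of -0.03. After the correction NR1H2 was at -0.14 (limma adjusted p = 0.0251) and PPARD at -0.18 (limma adjusted p = 0.0162). In that fit 45.8% of genes were called, 24.3% lower and 21.4% higher.

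**Figure D4:**
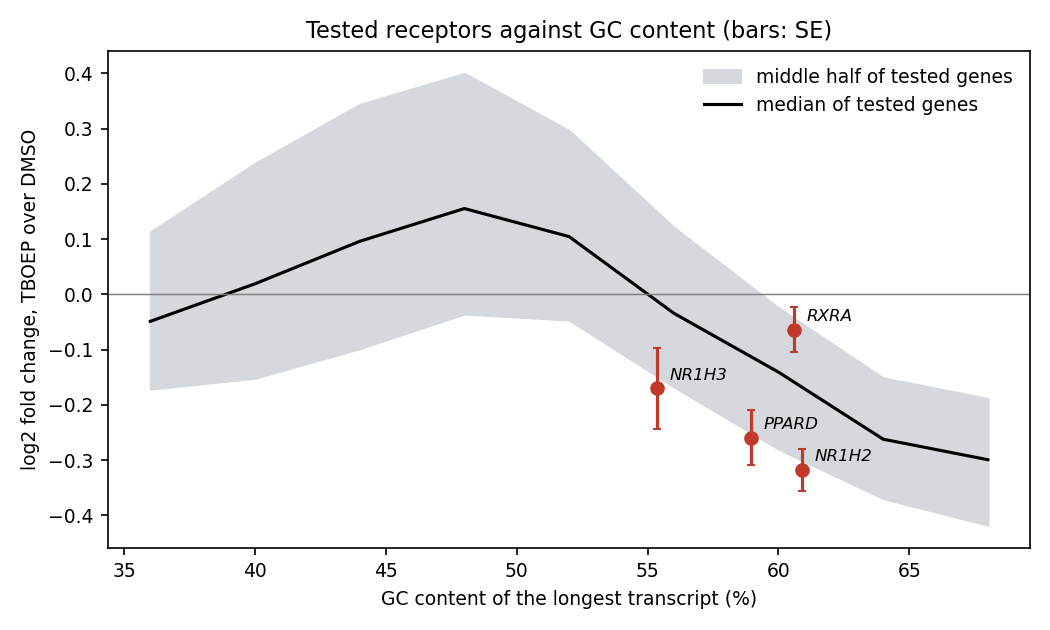
log2 fold change of TBOEP over DMSO against GC content (%) of the longest transcript, with the median (line) and middle 50% (band) of tested genes in 4-point GC classes and the 4 tested receptors (red, bars SE). At 58 to 62% GC the median is -0.14, with NR1H2 and PPARD below it and RXRA above it.

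Over the 6 libraries the tested genes whose log2(FPKM + 1) was most alike that of NR1H2 were BIN3 (Pearson's r = 0.997), FAM131A (0.997) and MAD2L2 (0.996), all lower in TBOEP. This is a description over libraries that differ by group. BIN3 had 6.54, 6.49 and 6.63 FPKM in TBOEP and 7.19, 7.28 and 7.52 FPKM in DMSO.

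Other nuclear receptors, among them partners of RXR, numbered 28, of which 26 were measured and 11 tested. Of the 11, 2 fell and 0 rose, where 26.9% of all tested genes were lower and 26.9% higher, and the median log2 fold change was -0.01. ESRRA, the orphan receptor that PGC-1 coactivators work through, fell by 0.52 ± 0.04 (SE; limma adjusted p = 1.45e-05), with means of 21.9 ± 1.07 FPKM in TBOEP and 31.7 ± 0.63 FPKM in DMSO (SD, n = 3 each), and stood at -0.26 after the GC and length correction. NR2F6, an orphan receptor that mostly represses transcription, fell by 0.31 ± 0.06 (SE; limma adjusted p = 0.00351) but not once corrected for GC content and length (limma adjusted p = 0.965). NR1D2 and NR1D1, the haem-binding repressors of the clock, were at -0.15 and 0.17 and did not pass (limma adjusted p = 0.0773 and 0.294). FXR (NR1H4), PXR (NR1I2), CAR (NR1I3) and HNF4A were measured but under the limit for testing. With the correction 1 of the 11 fell and 2 rose, the retinoic acid receptor RARA (0.16, limma adjusted p = 0.0440) and the thyroid hormone receptor THRA (0.15, limma adjusted p = 0.0328), both named after their values were seen. That fit called 24.3% of all genes lower and 21.4% higher.

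Of 20 coactivators and corepressors of nuclear receptors, 19 were measured and 16 tested, and 10 fell and 3 rose (all tested genes: 26.9% lower, 26.9% higher), with a median of -0.18. NCOR1, a corepressor of unliganded receptors, fell by 0.20 ± 0.06 (SE; limma adjusted p = 0.0215). HDAC3, a histone deacetylase of corepressor complexes, rose by 0.39 ± 0.03 (SE; limma adjusted p = 1.99e-05), and CITED2, which binds CBP and p300, rose by 0.30 (limma adjusted p = 2.09e-05). PRMT1, an arginine methyltransferase, fell by 0.32 (limma adjusted p = 4.07e-05). After the GC and length correction 6 fell and 1 rose (all genes in that fit: 24.3% lower, 21.4% higher): NCOR1 stood at -0.15 (limma adjusted p = 0.079), HDAC3 at 0.20 (8.87e-04) and CITED2 at -0.06 (0.0719). Without each library in turn, 5 to 9 of the coactivators and corepressors fell, 5 without DMSO replicate 2.

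Among 10 partners and chaperones of AHR, all measured, 7 were tested, 4 fell and 0 rose (all tested genes: 26.9% lower, 26.9% higher), with a median of -0.16. The cytosolic HSP90 chaperones HSP90AA1 and HSP90AB1, which hold AHR ready for ligand, fell by 0.28 ± 0.04 and 0.16 ± 0.02 (SE; limma adjusted p = 4.00e-04 and 6.14e-04), and stood at -0.50 and -0.51 with the correction. RB1, the retinoblastoma protein, which binds AHR, fell by 0.26 (limma adjusted p = 0.00835). ARNT, the nuclear partner of AHR, was at 0.12 ± 0.06 (SE) and did not pass (limma adjusted p = 0.152). It had means of 2.92 ± 0.168 FPKM in TBOEP and 2.62 ± 0.174 FPKM in DMSO (SD, n = 3 each).

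**Figure D5:**
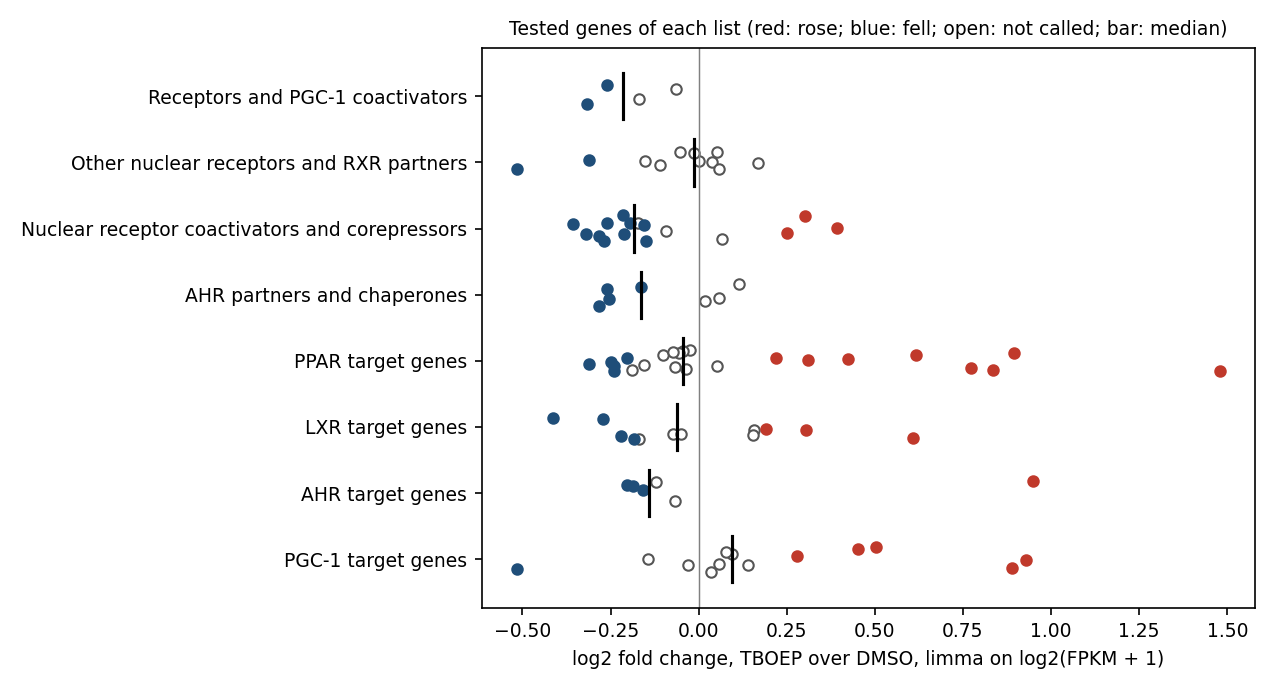
log2 fold change of TBOEP over DMSO by limma on log2(FPKM + 1) for the tested genes of each list (1 point per gene; red rose, blue fell, open did not pass; bars are list medians). The 4 tested receptors lie left of 0 (RXRA moves to 0.06 after the GC and length correction), and the farthest point to the right, HADHB, is a PPAR target.

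Known targets of the receptors were listed as well, and a target in a list can answer to other factors. Of 35 PPAR targets, 31 were measured and 23 tested, and 8 rose and 5 fell, with a median of -0.04. That lies near the shares over all tested genes, 26.9% higher and 26.9% lower. Without each library in turn the falls numbered 3 to 6, with 3 without DMSO replicate 3. HADHA and HADHB, which form the trifunctional enzyme of mitochondrial β-oxidation, rose by 0.77 ± 0.04 and 1.48 ± 0.07 (SE; limma adjusted p = 7.51e-07 and 1.34e-06). PLIN2, the coat protein of lipid droplets, rose by 0.89 ± 0.04 (SE; limma adjusted p = 1.03e-06), with means of 19.7 ± 0.775 FPKM in TBOEP and 10.1 ± 0.322 FPKM in DMSO (SD, n = 3 each). ECI2, an isomerase for unsaturated fatty acids, rose by 0.84 (limma adjusted p = 5.09e-06). These 4 also passed after the GC and length correction, at 0.49, 1.22, 0.55 and 0.68 in the order given. The 5 that fell, named after their values were seen, were UCP2, ACSL4, ACOT2, ACADM and ACOT1. UCP2, a mitochondrial carrier, fell by 0.31 ± 0.06 (SE; limma adjusted p = 0.00402) and was at -0.17 after the correction (limma adjusted p = 0.0358). ACADM, the medium-chain dehydrogenase of β-oxidation, fell by 0.24 ± 0.07 (SE; limma adjusted p = 0.0175) and was at -0.44 after the correction (limma adjusted p = 4.64e-04).

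CPT1A, which admits fatty acids to mitochondria, was at -0.19 ± 0.08 (SE; limma adjusted p = 0.0901), and ANGPTL4, a secreted lipase inhibitor, at -0.07 ± 0.06 (SE; limma adjusted p = 0.374). After the correction CPT1A was called lower (-0.28, limma adjusted p = 0.0223) and ANGPTL4 higher (0.22, limma adjusted p = 0.00945). PDK4, the kinase that shuts off pyruvate use, was under the limit for testing, with 0.0614, 0.0505 and 0.0811 FPKM in TBOEP and 0.150, 0 and 0.0915 FPKM in DMSO.

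Of 19 liver X receptor targets, 17 were measured and 12 tested, and 3 rose and 4 fell, with a median of -0.06; over all tested genes 26.9% were higher and 26.9% lower, so these shares lie near the background. NR1H3 is in this list too. SCD, the desaturase that makes oleate, rose by 0.61 ± 0.03 (SE; limma adjusted p = 2.04e-06). FASN, fatty acid synthase, fell by 0.27 ± 0.04 (SE; limma adjusted p = 3.07e-04) and was at -0.05 after the correction (limma adjusted p = 0.196). APOC1, an apolipoprotein, fell by 0.41 ± 0.07 (SE; limma adjusted p = 0.00145). ABCA1, the cholesterol exporter and a leading readout of these receptors, was at -0.07 ± 0.06 (SE) and did not pass (limma adjusted p = 0.298). MYLIP, the ligase that degrades the LDL receptor, was under the limit, with 0.354, 0.466 and 0.490 FPKM in TBOEP and 0.247, 0.330 and 0.496 FPKM in DMSO, and ABCG1 was not analysed here. After the correction 4 of the liver X receptor targets rose and 2, APOC1 and NR1H3, fell, in a fit with 21.4% of genes higher and 24.3% lower. APOE, named after its values were seen, turned from -0.22 (limma adjusted p = 0.0202) to 0.17 (0.0405).

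Of 17 AHR targets, 14 were measured and 6 tested, and 1 rose and 3 fell (all tested genes: 26.9% higher, 26.9% lower), with a median of -0.14. The gene that rose was NQO1, a quinone reductase that NFE2L2 also induces, at 0.95 ± 0.04 (SE; limma adjusted p = 4.39e-07). SLC7A5, EREG and CYP2S1, an amino acid transporter, a growth factor and a cytochrome P450, fell by 0.16, 0.20 and 0.19 (limma adjusted p = 0.00297, 0.00918 and 0.0314). After the correction NQO1 was at 0.63, and SLC7A5 and CYP2S1 were not called (limma adjusted p = 0.694 and 0.770). TIPARP, the ADP-ribosyltransferase that AHR induces and that restrains it, was at -0.07 ± 0.06 (SE) and did not pass (limma adjusted p = 0.368). After the correction TIPARP was called lower (-0.15, limma adjusted p = 0.0422), and EREG still was (-0.16, 0.0274). NFE2L2, named after its values were seen, went from -0.12 (limma adjusted p = 0.0978) to -0.44 (2.55e-04). The corrected fit called 24.3% of all genes lower and 21.4% higher. CYP1A1, the most inducible AHR target, had 2, 12 and 6 reads in TBOEP and 0, 0 and 2 reads in DMSO, too few for the limma-voom test as well. CYP1B1 had 0.547, 0.661 and 0.689 FPKM in TBOEP and 0.534, 0.569 and 0.745 FPKM in DMSO, and the groups overlapped.

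Of 18 PGC-1 targets, all measured, 13 were tested, and 5 rose and 1 fell (all tested genes: 26.9% higher, 26.9% lower), with a median of 0.09. The falls numbered 2 without DMSO replicate 2, after median centring, after quantile normalization, after the correction and in limma-voom, and 5 in limma-voom with the correction. Over all genes 24.3% were lower after the correction, 19.6% in limma-voom and 17.5% in limma-voom with the correction. Of all called genes, 38.6% were higher after median centring and 45.6% after quantile normalization. ATP5F1B, the catalytic subunit of ATP synthase, rose by 0.93 ± 0.02 (SE; limma adjusted p = 2.83e-08), with means of 697 ± 2.34 FPKM in TBOEP and 366 ± 1.07 FPKM in DMSO (SD, n = 3 each). SOD2, the mitochondrial superoxide dismutase, rose by 0.50 ± 0.04 (SE; limma adjusted p = 1.52e-05), and NRF1, a regulator of respiratory genes, rose by 0.45 ± 0.06 (SE; limma adjusted p = 3.62e-04) and was at 0.22 after the correction. The gene that fell was ESRRA, given above. TFAM, the packaging factor of mitochondrial DNA, was at -0.14 ± 0.06 (SE) and did not pass (limma adjusted p = 0.074).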

How the data were processed

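RNA-seq was made from HK2 cells in 3 TBOEP and 3 DMSO libraries, grouped by the treatment label. Per the labels' protocols, RNA was extracted with TRIzol and 2 library kits are named without saying which libraries each made, so it is unknown whether counting used strand. The submitters' processing notes list Trimmomatic and HISAT2 without versions; the genome build, its annotation and how reads were counted are not given in those sources. The deposited table holds FPKM as the authors computed them, under a header that names no unit; FPKM was inferred, because all 25808 rows became whole reads (within 0.01 reads) once each library had 1 total. Those totals are the depths given. Floors cover counting error only; the intervals are limma's and limma-voom's, built from the spread among libraries.

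A table pairing Ensembl IDs with symbols matched 25795 IDs. limma 3.58.1 in R 4.3.3 was fitted with a trended and robust empirical Bayes step to log2(FPKM + 1), two-sided, with no covariate, for genes that reached 1 FPKM in 3 or more libraries. Both this test and the read recovery were tested on simulated data. The simulated data for limma held few changed genes and no trend with GC content, unlike the real data. They therefore do not give the rate of false calls here. Fold changes on the log2(FPKM + 1) scale understate those of low genes. limma-voom on recovered reads was the added test. The correction for GC content and length (mgcv 1.9.3) subtracted, per library, a smooth surface over transcript GC content and log length from GENCODE 29, known for 98.9% of tested genes. Other alternatives were quantile normalization, median centring, no filter, a pseudocount of 0.1, no robust moderation, the replicate number as a block, and each library left out. Replicates differed beyond sampling noise in every pair (chi-square over degrees of freedom 7.72 to 9.37), so none is a duplicate.

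The genes and lists were chosen with earlier results of these data known. Named are all 10 genes, the 4 tested genes of each list with the smallest p, and 17 genes always given; RPS18, SLC39A7, BAG6 and CUTA were chosen after their values were seen, and the lists hold some genes in common. A few genes within this rule are left out of the text.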

Additional observations from a re-analysis of the deposited data

How the results depend on the processing

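As deposited, 5178 genes changed, 53.8% of tested genes, with 26.9% lower and 26.9% higher. Among the receptors and coactivators 0 rose and 2 fell, and 48 genes were called in the other lists. After median centring 57.0% of tested genes changed, and 4 receptors fell (NR1H2, PPARD, RXRA and NR1H3). Of all genes called there 38.6% were higher, against 50.1% as deposited. limma-voom with 10 reads in 3 libraries, chosen after the data were seen, gave 1 that rose (PPARG), where 19.0% of all genes were higher and 19.6% lower. With the replicate block 1 rose too, and between 0 and 1 without each library in turn. With the GC and length correction added to limma-voom, 4 fell (NR1H2, PPARD, NR1H3 and PPARGC1A), where 17.5% of all genes were lower and 16.1% higher. RXRA, log2 fold change -0.06 as reported, turned to 0.0612 with the GC and length correction in limma and to 0.0819 in limma-voom. The cause was not tested. Without each library in turn, limma called 4510 to 4761 genes, 2 to 3 receptors that fell, 0 that rose and 41 to 44 genes of the lists. After median centring, where 57.0% of tested genes changed, 8 PPAR targets and 6 liver X receptor targets fell, against 5 and 4. With no filter on low values 2 of each fell, in a fit that called 4105 of 25808 genes, 53.0% of them higher. NR1H2 and PPARD were called lower in every alternative run, NR1H2 at -0.14 in limma and -0.10 in limma-voom after the GC and length correction. The replicate numbers did not pair the libraries (correlations of deviations 0.105, -0.0331 and 0.00725), and with the replicate number as a block 4791 genes were called and no call of a receptor changed. Genes under 1 FPKM rest on 0 to 337 reads per library, which limits what can be seen of them.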
